A study of Mus musculus with 4 samples.

Results

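The early response and growth arrest genes described here are Ier2, Ier3, Ier5, Btg1, Btg2, Gadd45a, Gadd45b, Gadd45g, Cdkn1a and Myc, read in microglia, brain-resident macrophages, grown in culture from mice. A member was chosen by name, as the array probe set whose annotation gives that gene symbol and no other. Of the 10 listed genes, 9 had such a probe set, among 19938 genes named in all. Cdkn1a, which encodes the cyclin-dependent kinase inhibitor p21, is only on a probe set that carries several symbols, so it has no value here.

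The study asked how the inflammatory transcription of microglia depends on Bid, which carries death receptor signals to mitochondria. Total RNA was hybridised to 4 Affymetrix Mouse Gene 1.0 ST arrays, 1 for each group: wild type (WT) with no agent, WT with lipopolysaccharide (LPS, a bacterial cell wall component sensed by Toll-like receptor 4) for 3 h, Bid-/- with no agent, and Bid-/- with LPS for 3 h. The strain C57Bl is labelled for the WT arrays; for the Bid-/- cells no strain is labelled, and age, sex and how many cultures were used are unknown here. Values are deposited log2 expression, so a difference of 1 is 2-fold. Since no group has a second array, differences between 2 arrays cannot be checked against replicates and were given no p-value.

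Many of these genes are switched on quickly by signals that also start inflammation, and several of them slow or stop cell division. The IER (immediate early response) genes encode short-lived nuclear or membrane proteins. The GADD45 genes encode small stress proteins that bind the kinase MTK1 (Map3k4), the replication clamp PCNA and the CDK1 complex. BTG1 and BTG2 are antiproliferative proteins that bring the CCR4-NOT deadenylase to mRNAs, and MYC is a transcription factor of cell growth that dimerises with MAX. In macrophages, NF-kB and MAP kinase signals from Toll-like receptors are known to reach many of these genes.

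Arrays correlated with each other at Pearson's r of 0.984 to 0.996 over 28944 probe sets. Bid read 5.69 and 5.02 on the WT control and LPS arrays and 5.53 and 5.97 on the control and LPS arrays labelled Bid-/-. Its level was therefore not lower on the LPS array so labelled; the position of its probes against the deleted part is unknown here, so this checks nothing, and genotypes below are those of the labels. Of 10 microglial markers with a value, 9 to 10 reached the floor of 4.26 on each array (the median over probe sets of the mean level), with P2ry12 the exception after LPS. None of 7 neutrophil markers (0) and 1 of 7 lymphocyte and 1 of 8 neuron markers reached it on any array. Astrocyte, oligodendrocyte and endothelial markers reached it for 6 of 8, 6 of 7 and 4 of 7 genes, and fibroblast and mural markers for 9 of 12. All 9 measured members reached it on all 4 arrays. In bulk samples like these, fewer cells of a type and less RNA per cell cannot be told apart.

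The sequences before the RefSeq start sites of the 3 GADD45 genes are shown because Gadd45a and Gadd45b rose with LPS while Gadd45g read lower, and that of Ier3 because it was the member with the largest difference of response between genotype labels. Each run is the 250 bases before the start in assembly GRCm38.p6, read 5′ to 3′ on the strand of the gene; Gadd45a lies on the minus strand at chr6:67037408-67037657, and Gadd45b, Gadd45g and Ier3 on the plus strand at chr10:80929841-80930090, chr13:51846425-51846674 and chr17:35821463-35821712. Capitals mark matches, on either strand, to the TATA box TATAAA, the cAMP response element TGACGTCA and its part TGACG, the AP-1 site TGANTCA, the E-box CACGTG, the CCAAT box, and the kappaB, CArG and p53 consensus sites, the last as a single half-site of 10 bases.
Gadd45a: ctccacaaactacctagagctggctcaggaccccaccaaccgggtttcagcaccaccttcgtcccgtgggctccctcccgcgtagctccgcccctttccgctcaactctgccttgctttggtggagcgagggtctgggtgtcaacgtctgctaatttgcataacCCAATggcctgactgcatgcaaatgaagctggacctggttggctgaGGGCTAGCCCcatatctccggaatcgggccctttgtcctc
Gadd45b: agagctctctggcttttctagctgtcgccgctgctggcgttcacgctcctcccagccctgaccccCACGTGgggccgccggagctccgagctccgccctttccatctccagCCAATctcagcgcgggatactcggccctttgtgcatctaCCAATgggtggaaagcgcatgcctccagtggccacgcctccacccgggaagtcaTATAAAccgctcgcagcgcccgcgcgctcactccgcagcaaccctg
Gadd45g: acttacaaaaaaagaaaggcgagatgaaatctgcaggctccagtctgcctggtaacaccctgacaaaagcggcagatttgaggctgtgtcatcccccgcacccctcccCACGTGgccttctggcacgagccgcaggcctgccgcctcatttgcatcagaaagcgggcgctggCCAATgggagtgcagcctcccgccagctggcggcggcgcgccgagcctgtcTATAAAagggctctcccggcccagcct
Ier3: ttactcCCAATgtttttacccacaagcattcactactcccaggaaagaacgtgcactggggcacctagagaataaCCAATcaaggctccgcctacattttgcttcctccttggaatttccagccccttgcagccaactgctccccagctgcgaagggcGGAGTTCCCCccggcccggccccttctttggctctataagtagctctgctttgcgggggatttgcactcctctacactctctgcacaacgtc

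Gadd45b and Gadd45g both hold a TATAAA match, which starts 46 and 27 bases before the start, and an E-box at 185 and 142 bases. Gadd45a holds neither of these, and has a p53 half-site match, GGGCTAGCCC, at 40 bases. Such half-site matches are also in the Ier5 window, at 166 bases, and in 1 window of Cdkn1a, at 73 and 51 bases. All the GADD45 windows hold CCAAT matches, at 86 bases in Gadd45a, 139 and 100 in Gadd45b and 78 in Gadd45g. The Ier3 window holds a kappaB match, GGAGTTCCCC, at 92 bases. Over 32851 windows of the same length, 12.4% held TATAAA, 6.02% the E-box, 33.8% the CCAAT box, 3.9% a kappaB match and 7.13% a p53 half-site. Btg2 holds a full TGACGTCA at 166 bases, a match present in 1.55% of windows. A full TGACGTCA always contains TGACG, which 17.8% of windows hold, and Btg1 holds TGACG at 187 and 103 bases on the other strand. AP-1 and CArG matches, held by 6.75% and 1.47% of windows, were in none (0) of the windows of the 8 members that had one. RefSeq windows were found for 8 of the 10 members, Ier2 and Myc being the other two. A match describes letters and is not a binding site.

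LPS raised Gadd45a, Ier2 and Gadd45b in cells of both genotype labels, and these 3 of 9 members passed the test. Ier3 and Myc were higher on every LPS array than on either control array but did not pass. The 3 members that passed and Btg2 separated in the same way, and Gadd45g in the other direction. How many of all genes separate like this was not counted, so it only describes these values. Btg2 was higher by less, Gadd45g was lower on both LPS arrays, and Ier5 and Btg1 differed little from their controls; none of these passed. The test is an additive limma fit of log2 expression on genotype label and LPS over 11326 genes, with Benjamini-Hochberg adjustment and a threshold of 0.05. It called 1.68% of all genes higher and 1.56% lower. The members were chosen with earlier results of these data known, so member counts beside shares of all genes only describe. At an unadjusted limma p under 0.05, 6 members were higher and 1 lower, where 28.8% of all genes lay under it in either direction. With 1 residual degree of freedom, it takes the unequal part of the responses as error, so genes that respond unequally pass less easily. Nothing says that the arrays came from separate cultures, so the spread behind each p-value may be technical.

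**Figure D1:**
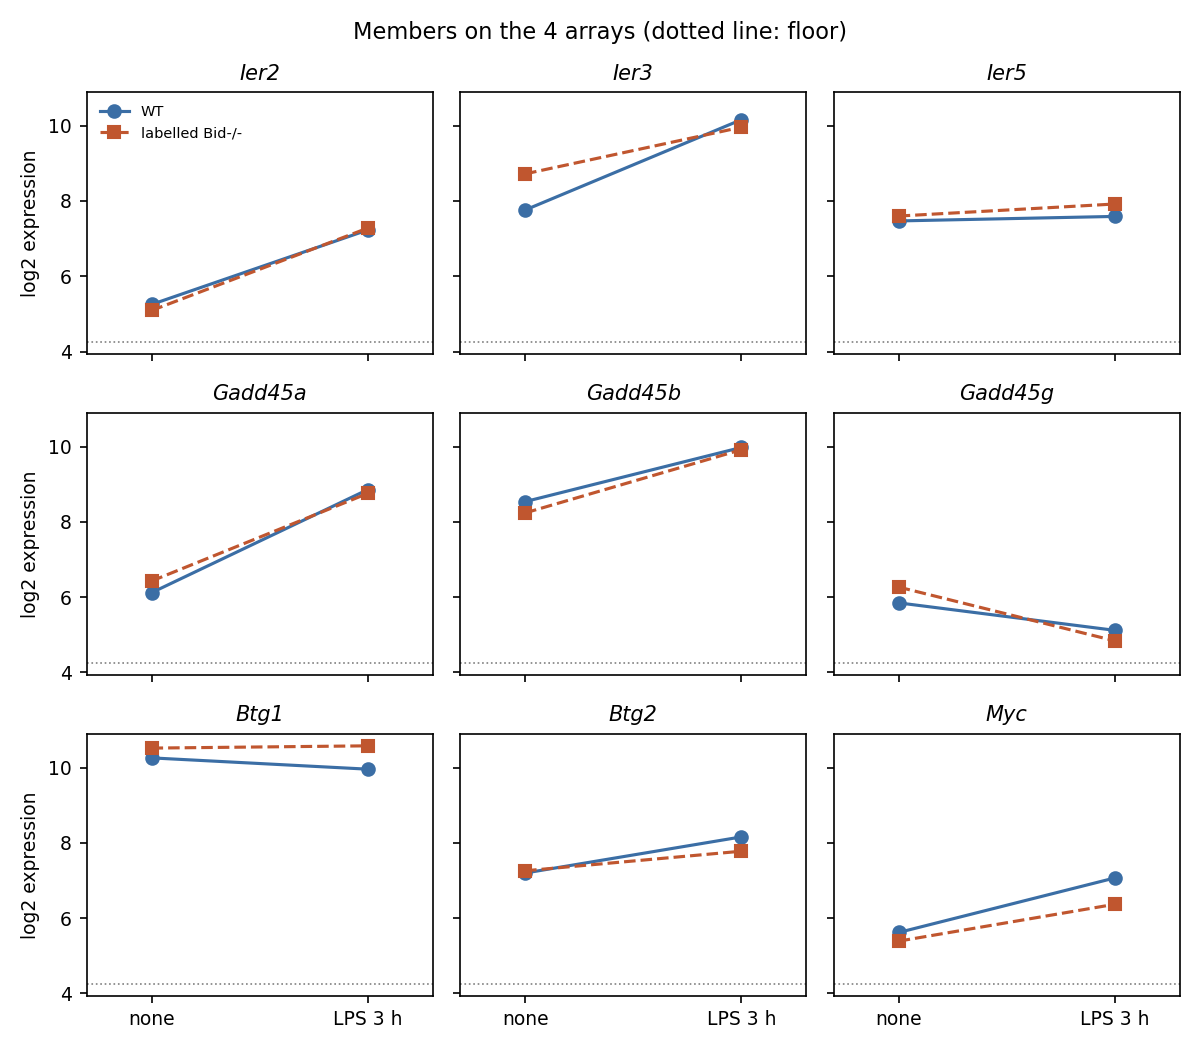
Log2 expression (y axis) of the 9 measured members on the array without agent and the array with LPS for 3 h (x axis), in WT (circles, solid line) and in cells labelled Bid-/- (squares, dashed line); each point is 1 array and the dotted line is the floor of 4.26. Ier2, Gadd45a and Gadd45b climb in both labels, Ier3 starts 0.96 higher on the array labelled Bid-/-, and Gadd45g slopes down.

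Gadd45a, a p53-inducible member of the GADD45 family, read 6.12 without and 8.86 with LPS in WT, and 6.43 and 8.76 in cells labelled Bid-/-. Both LPS arrays lay above both control arrays. The rise was 2.74 in WT (6.68-fold) and 2.33 in cells labelled Bid-/- (5.03-fold), with a mean of 2.54 (SE 0.17, limma adjusted p = 0.0265). That mean was the 37th highest of 11326 genes, the highest place among the members.

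Gadd45b, the family member best known as an NF-kB target that restrains JNK signalling, read 8.54 and 9.98 in WT and 8.24 and 9.92 in cells labelled Bid-/-. It rose by 1.44 and 1.68 (mean 1.56, SE 0.15, limma adjusted p = 0.0327). Its 2 LPS values differed by 0.06 and its 2 control values by 0.30. Gadd45g, the third paralog, first described as a cytokine-responsive gene, went the other way. It read 5.85 and 5.12 in WT and 6.27 and 4.84 in cells labelled Bid-/-, so that both LPS arrays lay below both controls. The difference was -0.73 in WT and -1.43 in cells labelled Bid-/-; the mean of -1.08 (SE 0.20) did not pass (limma adjusted p = 0.0694). It was the 120th lowest mean of 11326 genes, and the only member at least 2-fold lower in any LPS comparison.

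Ier2, a nuclear protein of the early growth factor response, read 5.25 and 7.23 in WT and 5.09 and 7.28 in cells labelled Bid-/-. The groups with and without LPS did not overlap, and the labels differed by 0.16 or less. It rose by 1.98 (3.94-fold) and 2.19 (4.56-fold), with a mean of 2.09 (SE 0.13), the smallest adjusted p among the members (limma adjusted p = 0.0231) and the 54th highest mean of all genes.

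Ier3, also called IEX-1, a membrane-associated regulator of survival downstream of NF-kB, read 7.76 and 10.16 in WT and 8.72 and 9.96 in cells labelled Bid-/-. Both LPS values lay above both control values, but the control labelled Bid-/- stood nearly 2-fold above the WT control. The LPS change was 2.40 in WT (5.28-fold) and 1.24 in cells labelled Bid-/- (2.36-fold). The mean of 1.82 had an SE of 0.32, the widest among the members, and did not pass (limma adjusted p = 0.0633). Ier5, which encodes a nuclear relative of Ier2 that acts on the heat shock factor HSF1, read 7.47 and 7.59 in WT and 7.60 and 7.92 in cells labelled Bid-/-. Its changes of 0.12 and 0.32 did not pass (limma adjusted p = 0.411).

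Myc read 5.62 and 7.07 in WT and 5.39 and 6.37 in cells labelled Bid-/-. Both LPS arrays lay above both controls, by 1.45 in WT and 0.98 in cells labelled Bid-/-. The mean of 1.22 (SE 0.16) fell just outside the threshold (limma adjusted p = 0.0505). Btg2, a p53-inducible antiproliferative gene, read 7.20 and 8.16 in WT and 7.26 and 7.78 in cells labelled Bid-/-. Its changes of 0.96 and 0.52 did not pass (mean 0.74, SE 0.18, limma adjusted p = 0.0943). Btg1, its closest relative, read 10.26 and 9.96 in WT and 10.52 and 10.58 in cells labelled Bid-/-. Here the LPS and control arrays overlapped, and the changes of -0.30 and 0.06 did not pass (limma adjusted p = 0.655).

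By size alone, 5 of the 9 members were at least 2-fold higher with LPS in WT (Gadd45a, Ier3, Ier2, Myc and Gadd45b), against 2.39% of 11129 genes, and none (0) was at least 2-fold lower, against 2.08%. On the arrays labelled Bid-/- 4 of 9 were (the same genes without Myc), against 2.7% of 10995 genes, and 1 was at least 2-fold lower, against 1.65%. The members' median was 1.44 in WT and 0.98 in cells labelled Bid-/-, where the medians of all genes were -0.05 and -0.10. The members were chosen with earlier results of these data known, so these counts and medians beside those of all genes are only a description. The call of only 3 members depended on the fit's settings: Ier3, Myc and Gadd45g each passed in 5 of 8 alternative settings and Btg2 in 3, while no member passed without a floor on low genes (limma adjusted p of 0.0951 or more). In the settings where these further members passed, limma called more of all genes too. The number went from 367 of 11326 as reported to between 876 of 11326 and 2458 of 11311.

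**Figure D2:**
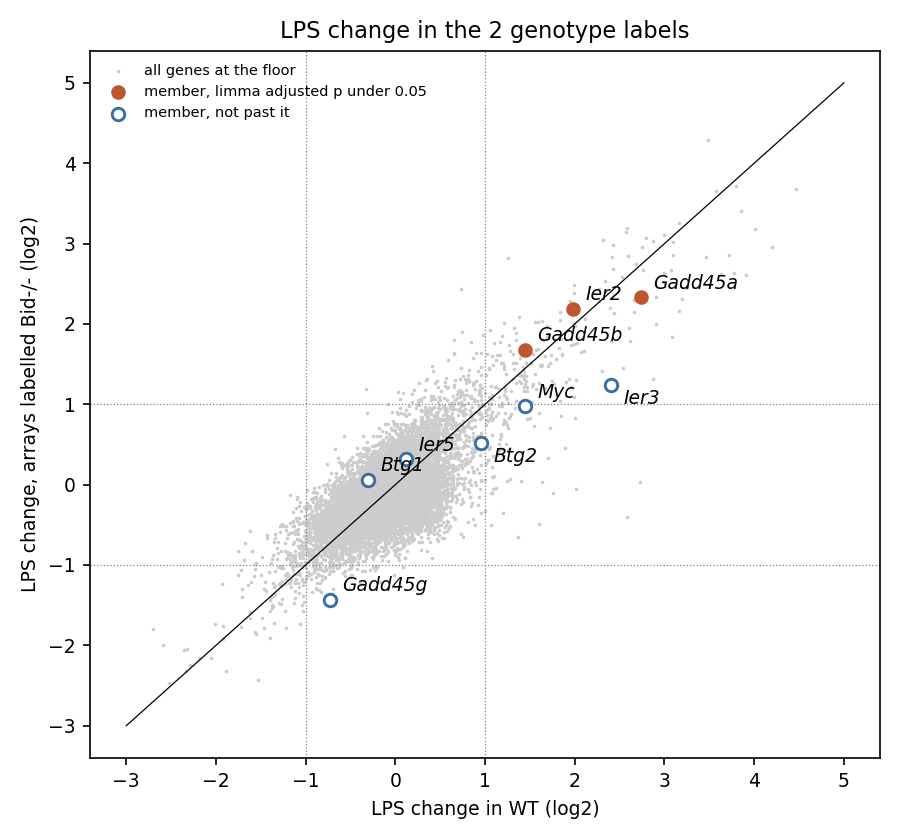
LPS change in WT (x axis, log2) against LPS change in cells labelled Bid-/- (y axis, log2); grey points are 11326 genes, filled points the 3 members past the limma threshold, open points the other 6, the solid line marks equal change and the dotted lines 2-fold. Ier2 and Gadd45b lie just above the line, Gadd45a and Ier3 below it, and Gadd45g at -0.73 and -1.43.

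Genes with the profile most like that of each member at least 2-fold changed in both labels were sought by Euclidean distance over the 4 arrays, after centring each gene on its own mean. The 3 nearest to Gadd45a were Il27, an interleukin-12 family subunit (distance 0.14), the activation marker Cd83 (0.18) and the collagenase gene Mmp13 (0.22). Those nearest to Ier2 were Calcrl, the calcitonin receptor-like receptor (0.16), the aggrecanase gene Adamts4 (0.19) and the phosphatase gene Dusp2 (0.23). Zfp811 (0.16), Sh3bgrl2 (0.17) and the integrin subunit gene Itga5 (0.18) were nearest to Gadd45b. Ier3 had less close neighbours, the chemokine gene Cxcl10 (0.28), the transcription factor gene Spic (0.33) and Ppp1r15a (0.35), which encodes GADD34. Cxcl10 read 10.07 and 12.08 in WT and 10.77 and 12.07 in cells labelled Bid-/-, so its control labelled Bid-/- was the higher control. The search selects genes of such a shape, so this is no separate observation. Likeness over 4 arrays is a description.

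Without LPS, Ier3 stood apart among the members on the array labelled Bid-/-. It was 0.96 higher there than on the WT control array (1.95-fold), the 43rd highest difference of 10909 genes. The other 8 members lay between -0.30 (Gadd45b) and 0.42 (Gadd45g), within the middle 95% of all genes, from -0.35 to 0.48. No member (0 of 9) was at least 2-fold different, against 0.358% of genes higher and 0.0733% lower; these are comparisons of 2 arrays with no test. Most fibroblast and mural markers were also higher on that control array. Over the 12 with a value, their summed linear level was 395 on the WT control, 723 on the WT LPS, 779 on the control labelled Bid-/- and 661 on the LPS array labelled Bid-/-. Of the 9 at the floor, 8 were higher on the control labelled Bid-/-, with a median difference of 0.66, and Thy1 was 0.30 lower; Lum, Rgs5 and Cspg4 stayed below the floor. With LPS the sum went up in WT and down in cells labelled Bid-/-. The 9 at the floor had a median LPS change of 0.76 in WT, with 9 above 0. In cells labelled Bid-/- their median was -0.04, with 4 above 0 and 5 below. Of 15 reference genes of the LPS response, 8 were higher on the control labelled Bid-/- than on the WT control and 7 were lower. Their median difference was 0.18, and they ran from 1.16 for Ptgs2 to -0.63 for Ccl4. The part of these genes and of the fibroblast and mural markers in the Ier3 values was not tested. In every difference between labels, an effect of Bid and one of strain background, sex or culture cannot be told apart.

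With LPS the order changed. Myc was 0.70 lower on the array labelled Bid-/- (7.07 against 6.37, 1.62-fold) and Btg2 0.38 lower. Btg1 was 0.62 higher (9.96 against 10.58, 1.54-fold), and Ier5 0.33 higher. Ier3 was now 0.20 lower, and Gadd45a, Gadd45b and Ier2 differed by 0.10 or less. All 9 lay within the middle 95% of all genes, from -0.77 to 0.69, and none (0 of 9) was at least 2-fold different, against 0.326% of genes higher and 0.489% lower. The difference between the LPS arrays moved with gene span in the RefSeq table of assembly GRCm38.p6: over 10 equal bins, the median went from -0.19 in the shortest genes to 0.22 in the longest. The members are short genes. Of the 9, 6 fall in the shortest bin and Btg1, Btg2 and Myc in the next, whose median was -0.15. The part of gene span in the members' values was not tested.

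**Figure D3:**
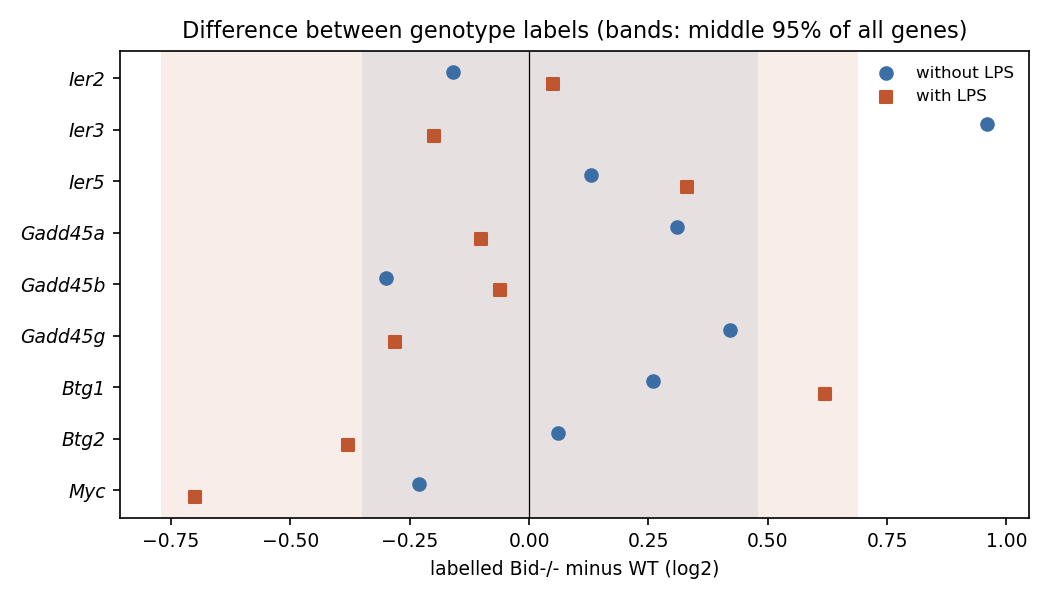
Difference of log2 expression between the arrays labelled Bid-/- and WT (x axis) for each of the 9 members (y axis), without LPS (circles) and with LPS (squares), 1 pair of arrays each; the narrow and the wide band are the middle 95% of all genes without and with LPS. Ier3 without LPS, at 0.96, is the point outside its band, and Myc with LPS, at -0.70, is the lowest point.

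The LPS response was smaller in cells labelled Bid-/- for Ier3 by 1.16 on the log2 scale, and this was the 37th lowest of 11326 such differences. Ier3 was the 1 member of 9 at least 2-fold different, against 0.627% of genes at least 2-fold lower and 0.159% higher. After quantile normalization its value was -0.99, just inside 2-fold. The fibroblast and mural markers at the floor had a median difference of response of -0.66, with 8 of 9 below 0, and the bin of shortest genes, which holds Ier3, had a median of -0.17. The 15 reference genes of the LPS response had a median difference of response of -0.20, with 9 below 0 and 6 above. The part of these sets of genes in the Ier3 value was not tested. The differences were -0.70 for Gadd45g, -0.47 for Myc, -0.44 for Btg2 and -0.41 for Gadd45a. They were positive for Btg1 (0.36), Gadd45b (0.24), Ier2 (0.21) and Ier5 (0.20). With 4 arrays no test of these differences was possible, and they use the same control arrays as the comparison of untreated cells.

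Related genes were read from lists chosen by function. Of 11326 genes, the limma test called 1.68% higher and 1.56% lower. An unadjusted limma p under 0.05 was reached by 28.8% of all genes, a share not split by direction here. The list counts at that p, given below, were not tested against this share. In the p53 pathway and target list, 1 of 30 genes rose and 3 fell; at an unadjusted limma p under 0.05, 5 were higher and 11 lower. The one that rose was Plk3, a stress-responsive polo-like kinase (1.39 in WT and 1.37 in cells labelled Bid-/-, limma adjusted p = 0.0319). Sesn1, a sestrin (-2.52 and -2.47, limma adjusted p = 0.0208), the checkpoint kinase gene Chek2 (-1.46 and -1.30, limma adjusted p = 0.0283) and Trp53inp1, a p53 cofactor (-1.09 and -1.23, limma adjusted p = 0.034), fell. The list thus held changes in both directions beside the rise of Gadd45a, itself known as a p53 target; its median was -0.13 in WT and -0.25 in cells labelled Bid-/-.

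Among 19 CDK inhibitors, G1 cyclins and RB family genes, 0 rose and 1 fell in limma, with 1 higher and 7 lower at an unadjusted p under 0.05. The gene that fell was Ccnd1, cyclin D1, which drives the G1 phase (from 8.50 to 7.13 in WT and from 8.28 to 6.89 in cells labelled Bid-/-, limma adjusted p = 0.0367). Of 15 S phase and mitosis genes at the floor, 0 passed in limma, and at an unadjusted p under 0.05 there were 3 higher and 7 lower. The list median was -0.17 in WT and -0.39 in cells labelled Bid-/-, with Mcm3, a replicative helicase subunit, the lowest (-0.77 and -0.59) and the licensing factor Cdt1 the highest (0.49 and 1.09).

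Around Myc, 0 of 14 MYC/MAX network genes passed in limma (1 at an unadjusted p under 0.05), with mean changes between -0.31 for Bin1 and 0.43 for Mlxip. Of 27 growth genes known as MYC targets, 0 passed as well, with 3 higher and 2 lower at an unadjusted limma p under 0.05. The highest was Odc1, ornithine decarboxylase (0.82 and 0.59, limma adjusted p = 0.0828), and the lowest Polr1b, an RNA polymerase I subunit (-0.80 and -0.57, limma adjusted p = 0.0677). Their median was 0.08 in WT and -0.09 in cells labelled Bid-/-.

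None (0 of 14) of the BTG/TOB family and CCR4-NOT genes passed in limma (3 at an unadjusted p under 0.05), and their medians were -0.06 and 0.07. The catalytic subunit gene Cnot7 was highest (0.45 and 0.65) and Cnot10 lowest (-0.40 and -0.45). Of 11 GADD45 partners and MAP kinase genes 0 passed in limma (6 at an unadjusted p under 0.05), with medians of 0.33 and 0.24. Map3k4, the GADD45-bound kinase, read lowest (-0.48 and -0.73) and Map3k5, which encodes ASK1, highest (0.57 and 1.20). Of 5 IER relatives and partners 0 passed in limma (2 at an unadjusted p under 0.05). Sertad1, a CDK4-binding protein, was highest (1.17 in WT, 0.57 in cells labelled Bid-/-), and Sertad3 lowest (-0.12 and -0.44). For comparison, 11 of 15 LPS response reference genes rose, with medians of 2.27 and 2.00, among them the cytokine gene Il6 (4.47 and 3.68, limma adjusted p = 0.0225) and the chemokine gene Cxcl1 (4.20 and 2.96, limma adjusted p = 0.0327). The smallest of the 11 rises were those of Il1b (1.77 and 1.25, limma adjusted p = 0.0401) and of Nfkbia, which encodes an NF-kB inhibitor (1.46 and 1.29, limma adjusted p = 0.0321). The 4 that did not pass were Junb (1.55 and 0.73), Atf3 (-0.15 and -0.08), Fos (-0.51 and -0.71) and Jun (-0.83 and -0.79). At an unadjusted limma p under 0.05, 12 reference genes were higher and 2, Fos and Jun, were lower. Of 10 microglial markers 1 fell, the fractalkine receptor gene Cx3cr1 (-1.12 and -1.41, limma adjusted p = 0.045); at an unadjusted limma p under 0.05, 6 were lower and 0 higher. Their medians were -0.47 in both labels, with 9 of 10 below 0 in WT and 10 of 10 in cells labelled Bid-/-.

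**Figure D4:**
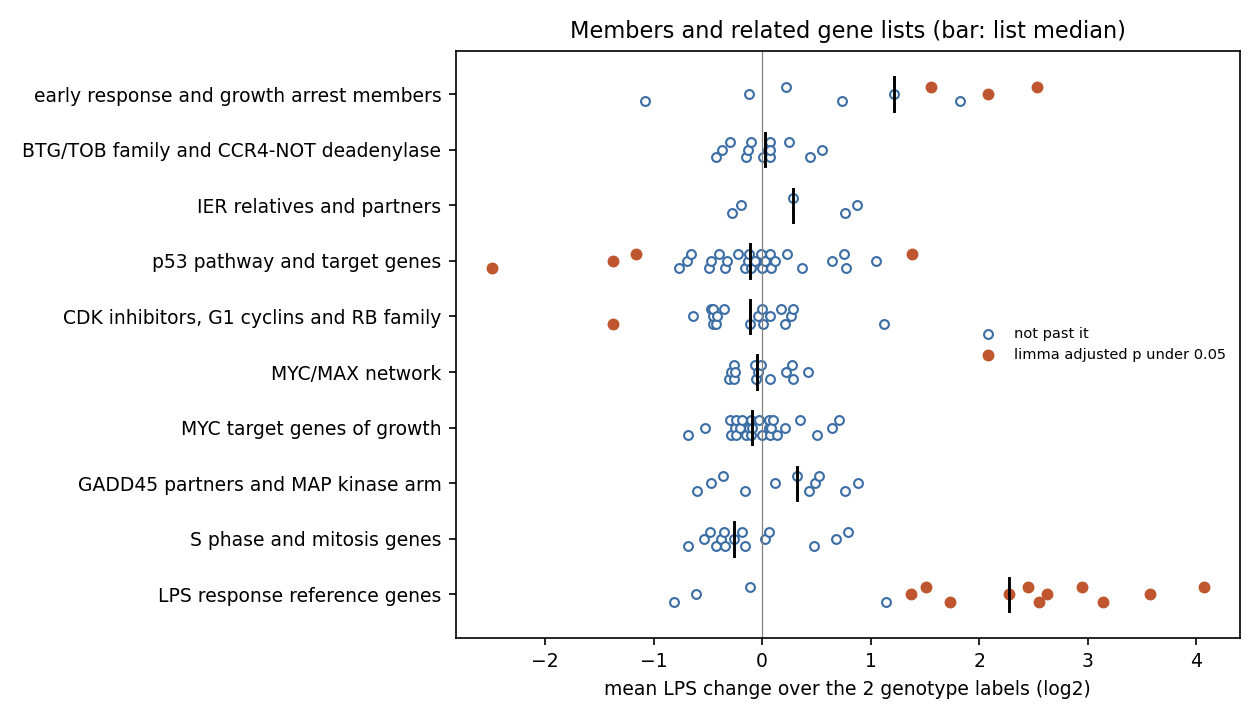
Mean LPS change over both genotype labels (x axis, log2) of each gene at the floor in the members and 9 related lists (y axis); filled points passed the limma threshold, open points did not, black bars are list medians, and points are offset vertically for legibility. The members run from -1.08 (Gadd45g) to 2.54 (Gadd45a), while the MYC and BTG lists lie between -0.69 (Polr1b) and 0.71 (Odc1).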

How the data were processed

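The authors deposited 1 table of log2 expression values with 2 decimals for 28944 probe sets on 4 arrays; per the submitters' processing notes the tools were Affymetrix Expression Console, RMA and Partek 6.2, whose roles are not stated. No log base is given, and log2 was read from the values (1.4 to 13.5). RMA usually brings arrays to a common distribution, which would remove a shift shared by all genes. The deposited values were not on exactly 1 distribution. The medians of the arrays ran from 4.24 to 4.28 and their highest values from 13.08 to 13.5. The number of arrays limits the precision.

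In the platform annotation 21789 probe sets have 1 symbol, 1621 have several and 5534 have none. Each gene was read from its single-symbol probe set with the highest mean. Each of the 9 measured members has 1 such probe set, and Cdkn1a has 0. Genes entered a comparison when the higher array reached 4.26. R 4.3.3 with limma 3.58.1 was used for the additive model (lmFit, then eBayes with trend). Rounding left 169 genes with no residual at all.

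Members and gene lists were chosen with earlier results of these data known. All members were named; from each list, genes called were named when 4 or fewer, otherwise the 2 highest and 2 lowest called, and where none was called the highest and the lowest; of the cell type lists only microglial genes are named by this rule. The LPS response reference genes that did not pass are named as well. Alternatives changed the normalization, the floor, the probe set rule and the model.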

Additional observations from a re-analysis of the deposited data

Results flagged for a closer look

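The Btg1 readings had opposite signs with LPS in the genotype labels: the difference was -0.30 in WT, against 0.06 in cells labelled Bid-/-. The second value minus the first is 0.36 (log2). This was not tested, and Btg1 did not pass for LPS (mean -0.12, SE 0.15, limma adjusted p = 0.655). That fit tests the mean of both changes and takes their difference as error, so it cannot tell whether either label responded alone.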

How the results depend on the processing

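The count of 3 members called higher became 6 after quantile normalization, after removal of an intensity trend and with noise inside the rounding, and 5 with a floor 1 log2 unit higher or with LPS alone in the model. In each of these 5 settings 1 member, Gadd45g, was called lower, against 0 as reported. All genes called numbered 367 of 11326 as reported. In these settings, in that order, they numbered 1928 of 11308, 2458 of 11311, 2036 of 11317, 891 of 8357 and 876 of 11326. Without a floor limma called 0 members and 0 of 19938 genes, with 3751 at an unadjusted p under 0.05. The cause was not tested. The count of members at least 2-fold lower in the difference of response went from 1 to 0 after quantile normalization. All other counts of members at least 2-fold different stayed within 1.5 times, among them 4 or 5 higher after LPS in cells labelled Bid-/- and 5 or 6 in WT. No call reversed. Of 295 values of single members under alternatives, 267 kept their direction and side of the threshold or moved by less than their SE, 18 newly passed, 3 no longer passed (Ier2, Gadd45a and Gadd45b without a floor) and 7 moved further. The labels carry no replicate numbers, so no replicate block was fitted; the additive model already compares LPS with control within each genotype label, and the model with LPS alone does not.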
